A study of Rattus norvegicus with 102 samples.

Results

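Small noncoding RNA genes were followed through 3 gene-level tables made from hippocampal subfields of the same rats. The set held 123 genes, taken from 1687 listed genes whose biotype was miRNA, rRNA, misc_RNA, snoRNA, snRNA or scaRNA and that did not lie on the mitochondrial chromosome, out of 26343 genes listed in any table. Members were selected on their mean normalised count over all libraries of a table, which had to be at least 10 in at least 1 of the 3 tables. Those means and the differences between tables that they contain are therefore described without a test. Of the 123 members, 119 carried the biotype miRNA and 4 were 5S rRNA genes, while 0 were misc_RNA and the tables held 0 genes of biotype snoRNA, snRNA or scaRNA. Among the miRNA genes, 45 had a family symbol such as Mir23b, 72 were known only by a genome contig name beginning with AABR and 2 by a LOC symbol.

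The rats were males of the strain that the labels spell Fisher 344, and CA1, CA3 and the dentate gyrus (DG) had been dissected from the hippocampus of each after water maze testing. There were 10 young rats of 5 to 6 months, and 24 aged rats of 17 to 22 months that the maze had sorted into 12 unimpaired and 12 impaired animals. The labels name no transgene or drug. Each of the 34 rats gave 1 library per subfield and table, so that replicates were separate animals and the 3 tables, although separate libraries, shared rats. The study describes shared RNA samples for the poly-A tables alone. The Illumina table came from poly-A selected RNA read as short pairs on a HiSeq, the Ion Proton table from poly-A RNA cut with RNase III and read on an Ion Proton, and the library type behind the third table, which the submitters named WT, is not given in the sources used here.

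A miRNA gene is transcribed into a long precursor, often the intron of a host gene, in which the miRNA sits in a hairpin. Drosha and Dgcr8 cut out the hairpin, Dicer1 trims it to the mature miRNA, and an Argonaute protein carries the mature strand, whose seed pairs with target messages. The mature strand is too short and lacks the poly-A tail that poly-A libraries select, so reads on a miRNA gene in such libraries come mostly from longer transcripts that cover the hairpin. 5S rRNA is made by RNA polymerase III, has no poly-A tail, and has many near-identical gene copies, between which short reads cannot be placed with certainty.

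RefSeq (build GRCr8) held a hairpin for 39 of the 123 members, with 61 mature sequences of 17 to 24 bases. The contig-named members, the 5S rRNA genes and several family symbols had no match and are named only. Members described at length below, for their differences between subfields or their reads, include those with the following mature sequences, written 5′ to 3′ with the seed (bases 2 to 8) in capitals.
rno-miR-23b-3p (Mir23b): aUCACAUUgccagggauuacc
rno-miR-27b-3p (Mir27b): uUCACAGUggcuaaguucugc
rno-miR-3074 (Mir3074): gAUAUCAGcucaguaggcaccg
rno-miR-568 (Mir568): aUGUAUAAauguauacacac
rno-miR-186-5p (Mir186): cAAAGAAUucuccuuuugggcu
rno-miR-2985 (Mir2985): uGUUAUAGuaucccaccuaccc
rno-miR-421-3p (Mir421): aUCAACAGacauuaauuggg
rno-miR-221-3p (Mir221): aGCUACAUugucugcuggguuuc
rno-miR-101a-3p (Mir101a): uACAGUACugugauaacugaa
rno-miR-219b (Mir2964): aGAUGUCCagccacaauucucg
rno-miR-3546 (Mir3546): aUAACCCGggccaaaagcucac
rno-miR-3064-3p (rno-mir-3064): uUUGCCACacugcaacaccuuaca
rno-miR-770-5p (Mir770): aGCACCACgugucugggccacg

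The 61 mature sequences carried 58 different seeds, and 3 seeds were shared by a pair of members each. These are printed because each seed belongs to more than 1 gene of the set. Mir138-1 and Mir138-2 encode the same miR-138-5p, Mir3597-1 and Mir3597-2 the same miR-9b-5p, and Mir344-1 and Mir344a-2 give strands of unequal length with 1 seed, of which the strand from Mir344a-2 is shown.
rno-miR-138-5p (Mir138-1, Mir138-2): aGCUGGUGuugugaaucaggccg
rno-miR-9b-5p (Mir3597-1, Mir3597-2): uUCGGUUAucuagcuuuau
rno-miR-344a-5p (Mir344a-2): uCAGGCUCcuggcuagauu

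Depth, library quality and subfield markers set limits on every value that follows. The median library held 10.7 mega-reads (M reads) on genes in the Illumina table (3.25 to 42.8 M), 9.74 M in the Ion Proton table (4.47 to 21.4 M) and 8.07 M in the WT table (3.54 to 20.6 M), so that a member at a normalised count of 10 rested on few reads. In 7 rats (3 young, 2 unimpaired and 2 impaired) every Illumina library exceeded 25 M reads. These rats are called deeply sequenced below, a name that refers to their Illumina libraries alone. In both poly-A tables the same 11 libraries (1 of CA1, 6 of CA3 and 4 of DG) lay nearer by subfield markers to a subfield other than the labelled one. Of these, 10 belonged to the 16 rats numbered from 9000 and 1 to the 18 rats numbered below 9000, numbers for which the labels give no meaning. The rats had been kept and tested at a pair of sites, with as many young and aged rats at each as in the 2 number series, but the labels tie no rat to a site. The summed normalised count of the 6 CA3 markers in Illumina CA3 libraries was 18863 to 24241 (median 20071) in rats below 9000 and 4287 to 19924 (median 13341) in rats from 9000. Both series held all 3 groups (5 young, 6 unimpaired and 7 impaired rats below 9000, and 5, 6 and 5 from 9000).

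The 3 tables differed in which small RNA genes reached the threshold, which is the value that chose the members. The mean of 10 was reached by 58 Illumina, 74 Ion Proton and 69 WT members. It was reached in exactly 1 table by 73 members, in a pair of tables by 22 and in all 3 by 28. Of the members at the threshold in 1 table, 34 were Ion Proton members, 29 WT members and 10 Illumina members. Among the 45 members with a family symbol, 12 reached the threshold in all 3 tables. There were 10 members at the threshold in both poly-A tables alone, 10 in the Illumina and WT tables alone and 2 in the Ion Proton and WT tables alone.

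**Figure D1:**
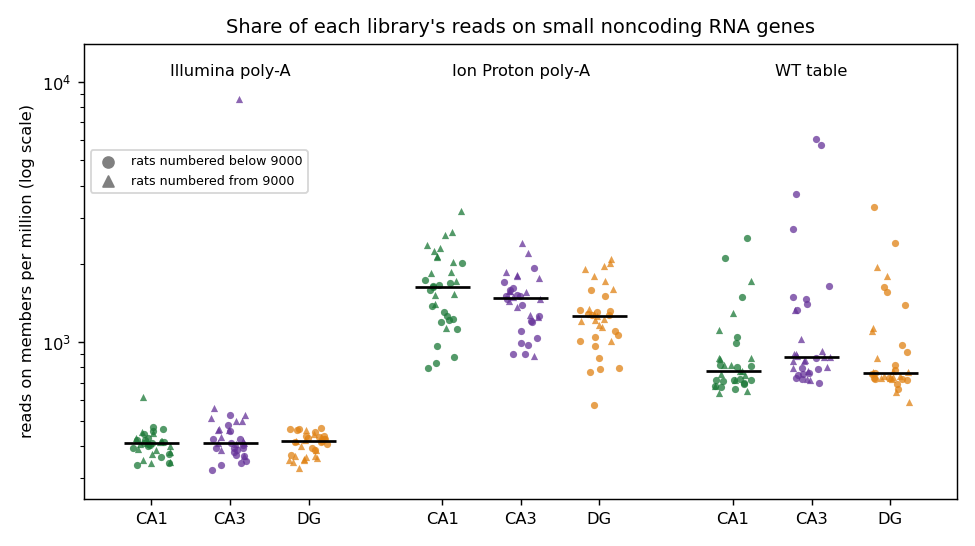
RPM (reads on members for each 1 M reads of a library) (logarithmic vertical axis), 1 point per library, by table and subfield, with lines at the medians and triangles for rats numbered from 9000. The medians are 1397 for Ion Proton, 800 for WT and 411 for Illumina libraries. The libraries overlap between tables, with 4 WT libraries above every Ion Proton library and 1 Illumina CA3 library at 8615.

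The members took a small share of each library. Reads on members made up a median of 411 of each 1 M reads (411 RPM) in the Illumina table (323 to 617 in all libraries but 1 CA3 library of an impaired rat, which stood at 8615), 1397 in the Ion Proton table (576 to 3202) and 800 in the WT table (589 to 6028). Contig-named and LOC miRNA genes accounted for most of it, with medians of 302, 1248 and 622 RPM, and they held 74.9%, 90.8% and 83.9% of all member reads in the 3 tables. Members with a family symbol differed less between tables, with medians of 104, 131 and 86.0 RPM. Mitochondrial genes took a median of 12.9% of all reads in the Illumina table and 9.5% in the WT table. In the Ion Proton table they took 0%, and its member shares over nuclear reads had the same range (576 to 3202). Whether mitochondrial reads were left out of that table is not given in the sources used here. As a share of nuclear reads the members' medians were 475, 1397 and 875 RPM. The 4 5S rRNA genes stood, over all reads, at 3.07 and 2.61 RPM in the poly-A tables and at 78.2 in the WT table.

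Within the Ion Proton table the median share went from 1633 RPM in CA1 (798 to 3202) through CA3 (1481, 885 to 2399) to DG (1265, 576 to 2092), with ranges that overlapped throughout. It was 1658 in rats from 9000 and 1260 in rats below 9000. The order of CA1 and CA3 held only in rats from 9000 (2078, 1564 and 1313 for CA1, CA3 and DG), while below 9000 the medians were 1281, 1330 and 1087. In the Illumina table the medians of the subfields were 410, 411 and 416, and those of the WT table were 777, 875 and 764. By series the order of the Illumina medians turned, with 411, 392 and 427 below 9000 and 403, 459 and 367 from 9000, and the WT median of CA3 was 1099 below 9000 and 864 from 9000. The WT median was 1334 in the libraries of the 7 deeply sequenced rats (844 to 3309) and 762 in those of the other rats (589 to 6028). By group the medians were 416, 416 and 402 in the Illumina table for young, unimpaired and impaired rats, 1286, 1450 and 1445 in the Ion Proton table and 848, 782 and 808 in the WT table. The deeply sequenced rats, 3 of the 10 young and 2 of the 12 in each aged group, were not left out of these medians.

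AABR06078907.4, a miRNA gene on chromosome 14 known only by its contig, took the most member reads of any gene in the Illumina and WT tables. It held 18.7% of member reads in the Illumina table and 28.5% in the WT table. In the Illumina table its normalised count ran from 401 to 3405 in all libraries but 1 and was 110242 in the same CA3 library, which alone held 20.2% of its reads. In the WT table its lowest, median and highest values were 1118, 5195 and 19392 in the 21 libraries of the 7 deeply sequenced rats, and 18.1, 51.5 and 42244 in the other 81. All 21 libraries of those rats, and 10 of the other 81, lay above 1000. The same rats did not stand apart in the Illumina table, where the values were 512, 794 and 1266, and in the Ion Proton table they were 978, 2882 and 5772 beside 553, 2002 and 5205 in the other rats. The mean of 2929 in the WT table therefore described few libraries, and its median was 58.3.

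That CA3 library, with 3.25 M reads, was higher than every other Illumina library for 47 members. Besides AABR06078907.4 these included AABR06078876.1 (1622, against at most 45.5 elsewhere) and the 5S rRNA gene ENSRNOG00000049144 (488, against at most 99.5). Mir770 (446, within the 1149 reached elsewhere) was not among them. Leaving the library out did not change the number of Illumina members, with 58 at a mean of at least 10 with it and 58 without it.

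Mir770, an intronic miRNA of the imprinted Dlk1-Dio3 region, took the most reads of the members with a family symbol in every table. Its normalised count had a lowest, median and highest value of 290, 578 and 1149 in the Illumina table, 32.2, 396 and 952 in the Ion Proton table and 14, 88.4 and 210 in the WT table. It held 43.2%, 32.0% and 13.7% of the reads on family symbols. The other members at the threshold in all 3 tables with the highest mean share of reads were AABR06046241.1 on chromosome 6 (medians of 849, 771 and 221), AABR06064957.2 on chromosome 10 (381, 794 and 210), AABR06065806.1 on chromosome 10 (507, 260 and 215) and AABR06015851.1 on chromosome 2 (173, 127 and 94.9). All 4 had their lowest median in the WT table and AABR06064957.2 its highest in the Ion Proton table, on scales that were set separately.

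The 5S rRNA genes were read differently by each table. 5S_rRNA ENSRNOG00000049144, on chromosome 19, had a median of 13.5 in the Illumina table, 1.19 in the Ion Proton table and 572 in the WT table (22.3 to 1180), where it took 93.9% of 5S reads. ENSRNOG00000044512, on chromosome 3, led the 5S reads of the Ion Proton table, with medians of 14.2, 16.4 and 6.73 in the 3 tables. These genes share sequence, so their separate counts are uncertain.

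**Figure D2:**
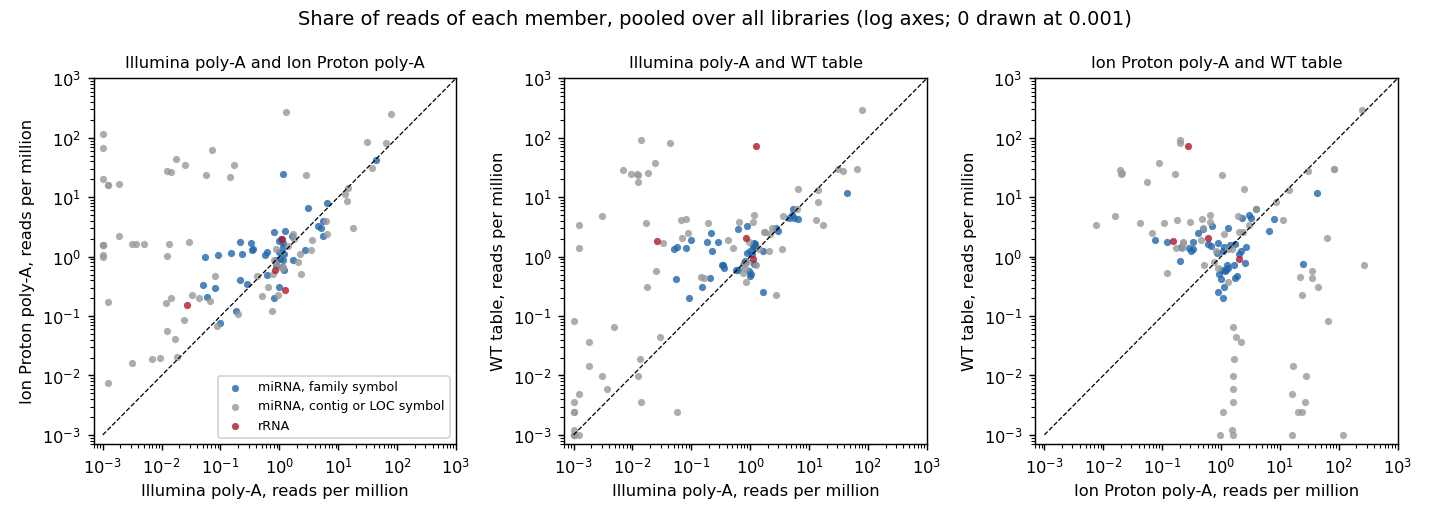
RPM of each member in 1 table against another, for the 3 pairs of tables, with both axes logarithmic and the line of equal shares drawn. The points split into members near the line and members far from it, with 25 members at least 100-fold higher in the Ion Proton than in the Illumina table and 0 the other way.

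As a share of reads, 60 members were at least 2-fold higher in the Ion Proton than in the Illumina table and 15 lower, and at least 100-fold the counts were 25 and 0. Against the WT table the Illumina share was at least 2-fold lower for 54 members and higher for 12, with 13 and 0 at 100-fold. Between the Ion Proton and WT tables, 46 members were at least 2-fold higher in the Ion Proton table and 47 in the WT table, with 19 and 11 at 100-fold. These ratios are part of what chose the set.

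The widest gaps were contig-named genes of chromosomes 14 and 6 that only the Ion Proton table held in number. AABR06078888.1 had 124628 reads in all Ion Proton libraries together (median normalised count 1102, 222 to 2747), 1 read in the Illumina table and 0 in the WT table, which is a share at least 32667-fold higher than the WT table allows when 3 reads over the table are taken as its floor. AABR06042543.1 had 70065 Ion Proton reads (median 535) and 1 Illumina read. AABR06078888.2 had 21544 reads (median 175) and 0 Illumina reads, which puts its share at least 10975-fold higher on the same floor. AABR06094499.1 on chromosome 18 and AABR06078876.4 on chromosome 14, with 28324 and 25220 Ion Proton reads, had 3 and 2 reads in the WT table.

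A different group was held by the WT table. LOC102547961 on chromosome 10 had a median normalised count of 708 there (176 to 1144) and 0 in the Illumina table, with 75896 against 23 reads and a share 6413-fold higher. AABR06049881.1 on chromosome 7 (median 222), AABR06034736.1 on chromosome 5 (192) and AABR06029321.1 on chromosome 4 (188) had medians of 0 in both poly-A tables. The Illumina table held few of its own: AABR06022216.2, AABR06062980.1 and AABR06085235.1 had shares 6.25, 5.85 and 4.70 times those of the Ion Proton table. AABR06078907.1 and Mir3072 had shares 12.5 and 6.50 times those of the WT table, and AABR06078876.4 had 93 reads in the Illumina table and 2 in the WT table.

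Members just above the threshold were AABR06013536.1 and AABR06022216.2 in the Illumina table (means of 10.11 and 10.34), AABR06071186.3 and AABR06004776.1 in the Ion Proton table (10.27 and 10.4), and AABR06053663.3 and AABR06085223.2 in the WT table (10.2 and 10.31). Just below it lay Mir3561 and AABR06052594.1 (9.39 and 9.23), AABR06004804.2 and Mir410 (9.94 and 9.32), and Mir3588 and Mirlet7d (9.86 and 9.67) in the same order of tables. Of these, Mir410 and Mir3588 were members through another table.

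Several members rose and fell together across the libraries of a table (34 rats by 3 subfields), whose points share rats and depth. Genes of like sequence may also share reads. A group of 21 contig-named Ion Proton members on chromosomes 1, 5, 6 and 14, linked by correlations of at least 0.8, held 34.4% of member reads (pairwise r of 0.31 to 0.98). AABR06078876.1 and AABR06078907.4, with 35% of member reads, had r = 0.84, and AABR06024596.3 on chromosome 3 and AABR06094499.1 on chromosome 18 had r = 0.99. A group of 4 WT members (the 5S gene ENSRNOG00000049144, LOC102547961, AABR06016851.1 and AABR06068951.1) held 18.3% of member reads with r of 0.8 to 0.94. Another WT group (AABR06055614.1, AABR06064957.2 and AABR06078907.4) held 31.6% with r of 0.86 to 0.89. Mir770 and AABR06046241.1, both on chromosome 6, had r = 0.87 in the Ion Proton table and were joined in the Illumina table by AABR06062980.1.

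Subfield differences came next. Each table was fitted by itself with limma on log2(normalised count + 1), over every gene with a mean of at least 10, and a gene was called at an adjusted p under 0.05. Log2 differences on this scale understate changes of low genes. DG was compared with CA1 first, because the fewest differences between the number series of the rats were called for that contrast. In the Illumina table such a difference was called for 0 of 58 members (0.839% of all genes), in the Ion Proton table for 0 of 74 (0.203%) and in the WT table for 3 of 69 (4.35%). The single-series fits still shared few calls. Of the 22 Illumina members called, 19 were called below 9000, 6 from 9000 and 4 in both, and of the 24 Ion Proton members 10, 15 and 4.

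**Figure D3:**
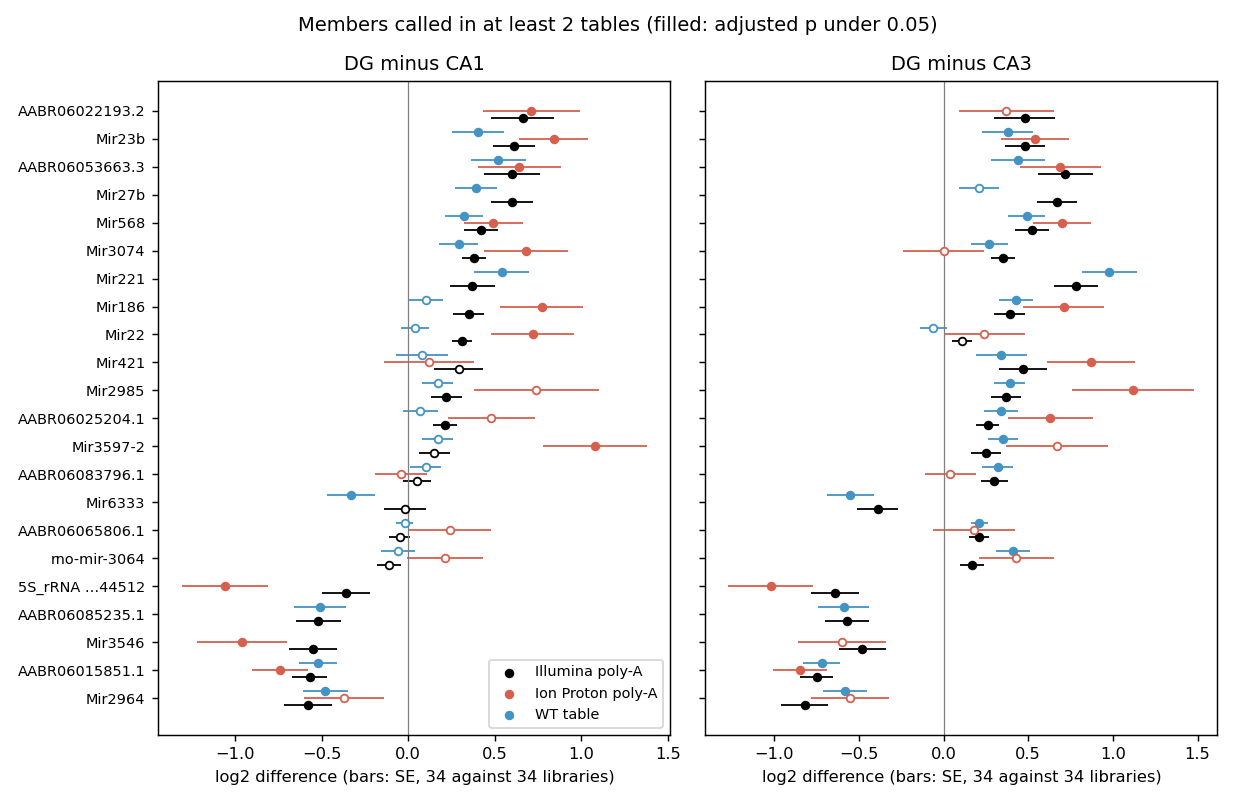
Log2 differences (DG minus CA1 on the left, DG minus CA3 on the right, horizontal axis) of the 22 members called in the same direction in at least 2 tables in either contrast, with bars of 1 standard error and filled points where the adjusted p was under 0.05. In DG minus CA1, Mir23b (0.61, 0.84 and 0.40 in the Illumina, Ion Proton and WT tables) lies to the right of 0 and AABR06015851.1 (-0.57, -0.74 and -0.52) to the left.

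Between DG and CA1, 12 of 58 Illumina members were higher in DG and 10 lower, where 26.7% of all genes were called higher and 29.0% lower. Of the 74 Ion Proton members 9 were higher (14.8% of all genes) and 15 lower (15.4%), while 8 of 69 WT members were higher (22.4%) and 7 lower (23.5%). The members were thus called at or below the rate of all genes, apart from the 15 lower Ion Proton members. Low counts make calls rarer, and only 29 of the 58 Illumina members had a mean of at least 20. Their median log2 difference was 0.01, -0.10 and -0.03 beside -0.003, 0.007 and -0.001 over all genes. With quantile normalisation of the log2 values the split was 21 higher and 5 lower in the Illumina table and 17 and 3 in the WT table, and when counts were rescaled to protein-coding reads the WT split was 6 and 8. No scaling moved the median of all genes by over 0.1.

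Mir23b, Mir3074, Mir568 and AABR06053663.3 were higher in DG than in CA1 in all 3 tables, AABR06015851.1 was lower in all 3, and no member was called in opposite directions in any pair of tables. Adding those called in a pair of tables, 9 members were higher, with Mir27b, Mir186, Mir22, Mir221 and AABR06022193.2, and 5 were lower, with Mir2964, Mir3546, AABR06085235.1 and the 5S gene ENSRNOG00000044512. The Ion Proton call of AABR06022193.2 (0.71 ± 0.28, adjusted p = 0.0409) was made by neither edgeR nor DESeq2. In bulk tissue a change in RNA per cell and a change in the number of cells that make it cannot be told apart. The tables share rats, and the poly-A tables RNA, so such repeats do not come from separate animals.

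Mir23b and Mir27b belong to a miRNA cluster on chromosome 17, where Mir3074 also lies. In the Illumina table the lowest, median and highest normalised counts of Mir23b were 4.78, 13.9 and 27.3 in CA1 and 8.15, 21.4 and 30.8 in DG, with 34 libraries each. The DG libraries were shifted upwards with wide overlap, by a log2 difference of 0.61 ± 0.12 (SE, adjusted p = 1.73e-05). In the Ion Proton table Mir23b ran from 0 to 49.1 in CA1 (median 16.6) and from 9.12 to 80.3 in DG (median 30.2), and in the WT table its medians were 9.40 and 13.7. The differences were 0.84 ± 0.20 (adjusted p = 6.54e-04) and 0.40 ± 0.15 (adjusted p = 0.0190). In rats below 9000 and from 9000 they were 0.85 and 0.33 in the Illumina table and 0.94 and 0.73 in the Ion Proton table.

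Mir27b was higher in DG in the Illumina table, with medians of 13.6 in CA1 and 21.5 in DG (log2 difference 0.60 ± 0.12, adjusted p = 6.65e-06), and in the WT table (10.5 and 13.6, 0.39 ± 0.12, adjusted p = 0.00443). Mir3074 had Illumina medians of 37.7 in CA1 and 49.2 in DG, and the difference was 0.38 ± 0.07 (adjusted p = 4.61e-06). Below and from 9000 the Illumina values were 0.85 and 0.31 for Mir27b and 0.60 and 0.14 for Mir3074, and the WT values of Mir27b 0.49 and 0.27. In the WT table the difference of Mir3074 was 0.29 ± 0.11 (adjusted p = 0.0278) over all rats, 0.60 in rats below 9000 and -0.07 in rats from 9000, and it did not pass when counts were rescaled to protein-coding reads. In the Ion Proton table it was 0.68 ± 0.24 (adjusted p = 0.0215), with 1.12 below 9000 and 0.19 from 9000.

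Mir568 lies within Zbtb20, a transcription factor gene known for its part in hippocampal development. Its Illumina counts were 38.7 to 110 in CA1 (median 72.3) and 59.8 to 169 in DG (median 99.1), its Ion Proton medians were 63.8 and 101, and its WT medians 30.9 and 37.9. DG was higher in each, with log2 differences of 0.42 ± 0.10 (adjusted p = 1.12e-04), 0.49 ± 0.17 (adjusted p = 0.0172) and 0.32 ± 0.11 (adjusted p = 0.0136), and the groups overlapped. The values within rats below and from 9000 were 0.61 and 0.21, 0.55 and 0.43, and 0.38 and 0.25.

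AABR06053663.3, on chromosome 8, had medians of 15.5 in CA1 and 23.4 in DG in the Illumina table, 10.4 and 17.0 in the Ion Proton table and 7.46 and 11.9 in the WT table. Its DG minus CA1 differences were 0.60 ± 0.16 (adjusted p = 7.0e-04), 0.64 ± 0.24 (adjusted p = 0.0368) and 0.52 ± 0.16 (adjusted p = 0.00446). They were 0.30 and 0.09 in the poly-A tables for rats from 9000, and 0.87 and 1.12 below 9000.

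**Figure D4:**
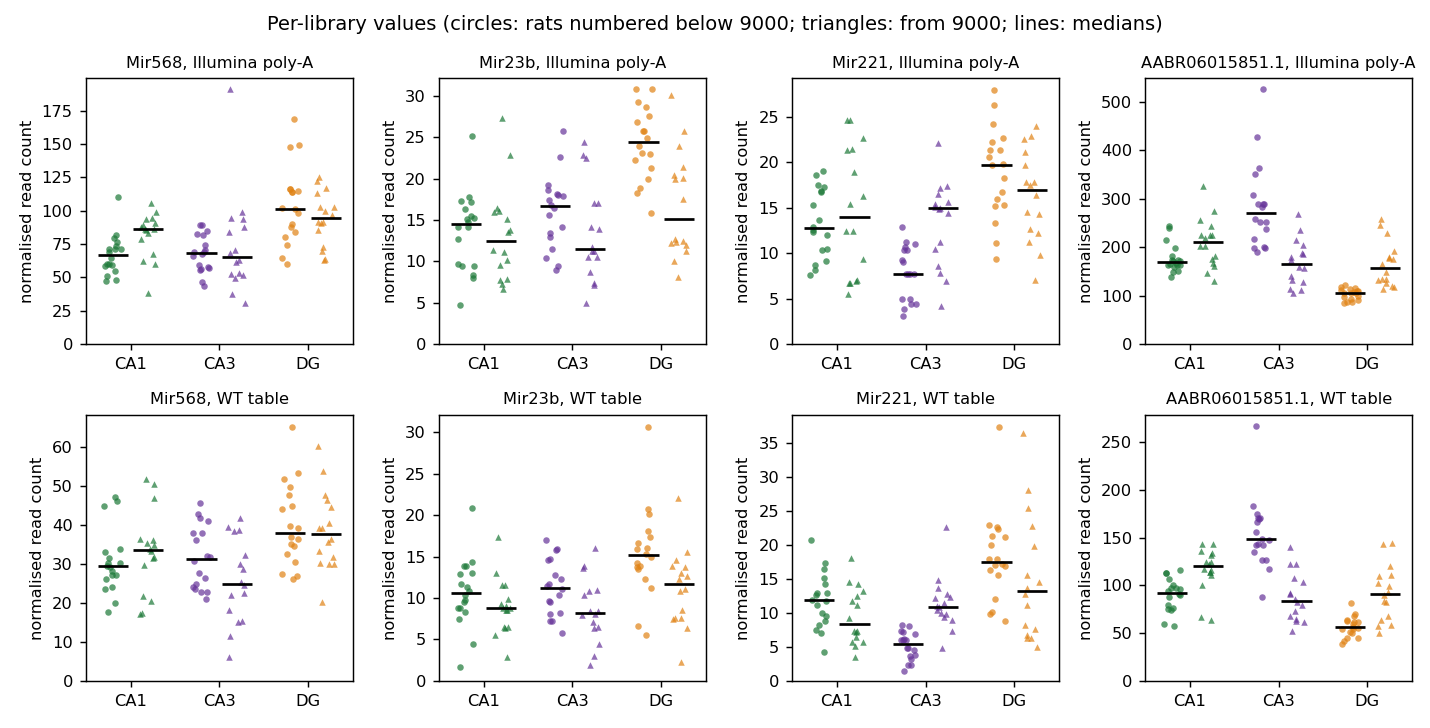
Normalised read counts of Mir568, Mir23b, Mir221 and AABR06015851.1 in every Illumina (upper row) and WT (lower row) library by subfield, with rats numbered below 9000 as circles, rats from 9000 as triangles and lines at the medians. AABR06015851.1 in Illumina DG (median 116) lies below CA1 (median 175), while libraries of different subfields overlap for all 4 genes.

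AABR06015851.1, on chromosome 2, went the other way. Its Illumina counts were 130 to 326 in CA1 (median 175) and 85.1 to 259 in DG (median 116), its Ion Proton medians 154 and 89.1 and its WT medians 104 and 63.6. Most DG libraries lay below most CA1 libraries, with log2 differences of -0.57 ± 0.10 (adjusted p = 2.64e-06), -0.74 ± 0.16 (adjusted p = 1.30e-04) and -0.52 ± 0.11 (adjusted p = 7.31e-05). In both number series and every table the difference was below 0, from -0.35 to -0.78.

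Mir2964, whose product is named miR-219b, had Illumina medians of 16.8 in CA1 and 10.5 in DG and a difference of -0.58 ± 0.14 (adjusted p = 2.68e-04), and a WT difference of -0.48 ± 0.13 (adjusted p = 0.00154) that was -0.28 (adjusted p = 0.0711) under quantile normalisation. The Ion Proton medians were 14.4 and 9.92, and the difference of -0.37 ± 0.23 did not pass (adjusted p = 0.230). Mir3546 on chromosome 15 was lower in DG in both poly-A tables (-0.55 ± 0.14, adjusted p = 3.85e-04, and -0.96 ± 0.26, adjusted p = 0.00288). Over all rats the summed normalised count of the oligodendrocyte markers Mbp, Mog and Mobp had Illumina medians of 79951, 88297 and 46150 for CA1, CA3 and DG. It was lowest in DG with overlapping ranges (26217 to 131599 in DG, 43756 to 194776 in CA1). The medians were 63219, 95132 and 31828 below 9000 and 122608, 71093 and 71107 from 9000, where CA3 was as low as DG. The part of these markers in the members' differences was not tested.

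In the Ion Proton table the members with the largest DG minus CA1 differences that passed were Mir101a, Mir3597-2, AABR06034340.1, Mir330 and the 5S gene ENSRNOG00000044512. Mir101a ran from 0 to 38.6 in CA1 (median 8.31) and from 1.52 to 81.0 in DG (median 19.2), a difference of 1.25 ± 0.33 (adjusted p = 0.00166). Its mean was under 10 in the other tables, with medians of 4.03 and 3.99 in the Illumina table and 5.21 and 5.22 in the WT table. Mir3597-2 was higher by 1.08 ± 0.30 (adjusted p = 0.00326, medians 7.47 and 14.9). AABR06034340.1 was lower, with medians of 14.6 and 7.52 and a difference of -1.18 ± 0.25 (adjusted p = 7.88e-05), and in the other tables its medians were 0.

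Mir330, in the gene Eml2, had Ion Proton medians of 7.83 in CA1 and 6.05 in DG, but its highest CA1 library reached 189 and its CA1 mean was 24.5. Its difference of -0.97 ± 0.29 (adjusted p = 0.00748) was -0.62 (adjusted p = 0.0803) under quantile normalisation. The mean of Mir330 over all Ion Proton libraries was 12.4, so it met the filter of 10 through its CA1 libraries. Its calls as lower in DG and in CA3 are therefore not independent of that filter. ENSRNOG00000044512 had Ion Proton medians of 19.8 in CA1 and 10.5 in DG (-1.06 ± 0.25, adjusted p = 4.19e-04) and an Illumina difference of -0.36 ± 0.14 (adjusted p = 0.0192) that did not pass under quantile normalisation. In the WT table Mir221 (medians 11.1 and 16.6, 0.54 ± 0.16, adjusted p = 0.00293) and AABR06020197.1 (11.1 and 17.2, 0.58 ± 0.17, adjusted p = 0.00277) were higher in DG, and AABR06085235.1 was lower (23.7 and 17.1, -0.51 ± 0.15, adjusted p = 0.00290).

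The contrasts with CA3 depended on the number series. For CA3 minus CA1 the difference between series was called for 18 of 58 Illumina members (39.7% of all genes), 3 of 74 Ion Proton members (15.0%) and 22 of 69 WT members (32.9%). For DG minus CA3 it was called for 26 (48.4%), 8 (17.1%) and 31 (45.7%). The 11 libraries that lay nearer to another subfield were mostly from rats from 9000, and leaving them out gave 33, 23 and 25 members called for DG minus CA3 (60.0%, 33.5% and 51.0% of all genes) and 16, 2 and 14 for CA3 minus CA1 (43.5%, 19.3% and 36.8%) in the Illumina, Ion Proton and WT tables. Called members with opposite signs in the 2 series numbered 2 of 11 Illumina, 0 of 3 Ion Proton and 3 of 12 WT members for CA3 minus CA1, and 9 of 31, 0 of 18 and 6 of 22 of those tested in both series for DG minus CA3. For DG minus CA1 they numbered 0 of 22 Illumina, 0 of 22 Ion Proton and 1 of 13 WT members.

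Over all rats, CA3 minus CA1 called 4 Illumina members higher (17.1% of all genes) and 7 lower (18.3%), 1 Ion Proton member higher (8.05%) and 2 lower (7.73%), and 2 WT members higher (16.5%) and 10 lower (16.5%). In these limma fits calls between CA3 and CA1 were rarer among members than over all genes in both directions and every table. Many members had low counts, which make calls rarer, so the rates do not compare genes of like level. In the Illumina table the split of 4 and 7 became 11 and 6 with edgeR and 7 and 6 with DESeq2, so that its balance depended on the test. The WT split was 4 and 8 with DESeq2 and the Ion Proton split 1 and 1 under quantile normalisation. No member was called in all 3 tables. AABR06046241.1 was higher in CA3 in the Illumina and WT tables, and Mir221, AABR06065806.1, AABR06057017.1 and rno-mir-3064 were lower in both. In rats below 9000 alone 21 of 57 Illumina members (55.4% of all genes) and 27 of 71 WT members (51.7%) were called, and in rats from 9000 alone 4 of 58 (13.7%) and 6 of 67 (12.5%).

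rno-mir-3064, in the RNA helicase gene Ddx5, had WT medians of 53.8 in CA1, 41.3 in CA3 and 50.6 in DG. CA3 was lower than CA1 by a log2 difference of -0.47 ± 0.10 in the WT table (adjusted p = 1.07e-04; -0.72 below 9000 and -0.18 from 9000) and by -0.28 ± 0.07 in the Illumina table (adjusted p = 0.00104; -0.49 and -0.06). The Ion Proton difference was -0.23 ± 0.22 (adjusted p = 0.546).

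Mir221, on the X chromosome, had medians of 12.8, 10.4 and 17.8 for CA1, CA3 and DG in the Illumina table and of 11.1, 7.30 and 16.6 in the WT table, so that CA3 was lowest and DG highest with overlapping ranges. CA3 minus CA1 was -0.41 ± 0.13 (adjusted p = 0.0108) and -0.43 ± 0.16 (adjusted p = 0.0248). It was -0.73 and -1.07 in rats below 9000, and -0.06 and 0.28 in rats from 9000. The WT call did not pass under quantile normalisation. Mir374 (Illumina, -0.41 ± 0.16, adjusted p = 0.0324) was -1.17 below 9000 and 0.44 from 9000, and neither edgeR nor DESeq2 called it. AABR06057017.1 (Illumina, -0.58 ± 0.13, adjusted p = 2.05e-04) was -0.96 and -0.15. Its WT difference of -0.36 ± 0.13 (adjusted p = 0.0246) was -0.85 below 9000 and 0.19 from 9000, and neither edgeR nor DESeq2 called it.

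Mir770 and AABR06046241.1 showed the reverse dependence. The Illumina medians of Mir770 were 531, 666 and 578 in CA1, CA3 and DG. Its CA3 minus CA1 difference was 0.31 ± 0.10 (adjusted p = 0.0102), with 0.02 below 9000 and 0.64 from 9000. AABR06046241.1 was higher by 0.30 ± 0.09 in the Illumina table (adjusted p = 0.00537, 0.09 and 0.53) and 0.29 ± 0.09 in the WT table (adjusted p = 0.00450, 0.15 and 0.45). Mir6333 was higher in Illumina CA3 (0.37 ± 0.12, adjusted p = 0.0139) and Mir3592 in WT CA3 (0.45 ± 0.16, adjusted p = 0.0222). Ion Proton CA3 had more Mir3074 (0.68 ± 0.24, adjusted p = 0.0367; not called by edgeR or DESeq2), and Mir421 (-0.75 ± 0.26, adjusted p = 0.0377) and Mir330 (-0.96 ± 0.29, adjusted p = 0.0146; not called under quantile normalisation) were lower.

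DG minus CA3 called 21 Illumina members higher (26.7% of all genes) and 10 lower (28.9%), 8 Ion Proton members higher (14.3%) and 11 lower (15.8%), and 18 WT members higher (23.4%) and 6 lower (25.3%). Of the Illumina members tested, 36.2% were called higher, above the share of all genes, and 17.2% lower, below it. Of the WT members 26.1% were higher, near the share of all genes, and 8.70% lower, below it. The Ion Proton shares were 10.8% and 14.9%, neither above that of all genes. With the rat as a block the WT split was 17 and 10, and with edgeR the Illumina split was 21 and 16 and the Ion Proton split 6 and 18. Mir23b, Mir421, Mir186, Mir568, Mir2985, AABR06025204.1 and AABR06053663.3 were higher in DG in all 3 tables and AABR06015851.1 lower in all 3. The Ion Proton calls of AABR06025204.1 and AABR06053663.3 were not made by edgeR, and that of AABR06025204.1 not by DESeq2 either.

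Among these, Mir568 held in every table and both series. Its DG minus CA3 difference was 0.52 ± 0.10, 0.70 ± 0.17 and 0.49 ± 0.11 in the Illumina, Ion Proton and WT tables (adjusted p = 1.86e-06, 5.79e-04 and 1.26e-04), with values from 0.33 to 0.74 within series. Mir186, in the splicing protein gene Zranb2, had medians of 54.1 in CA3 and 69.1 in DG in the Illumina table, 27.1 and 41.8 in the Ion Proton table and 28.2 and 35.7 in the WT table. The differences were 0.39 ± 0.09, 0.71 ± 0.24 and 0.43 ± 0.10 (adjusted p = 6.47e-05, 0.0187 and 2.88e-04), and within series they ran from 0.32 to 0.78.

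Mir2985, in the AMPA receptor gene Gria2, was higher in DG by 0.37 ± 0.09, 1.12 ± 0.36 and 0.39 ± 0.09 (adjusted p = 2.81e-04, 0.0124 and 2.03e-04), and its smallest within-series values were 0.12, 0.64 and 0.18. Mir421 was higher by 0.47 ± 0.14, 0.87 ± 0.26 and 0.34 ± 0.15 (adjusted p = 0.00291, 0.00686 and 0.0454), but in rats from 9000 its differences were -0.30, 0.17 and -0.48. With the rat as a block, or rescaled to protein-coding reads, its WT difference did not pass. AABR06015851.1 was lower by -0.75 ± 0.10, -0.85 ± 0.16 and -0.72 ± 0.11 (adjusted p = 1.47e-09, 1.05e-05 and 6.19e-08), which in rats from 9000 was -0.02, -0.38 and 0.05.

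Among the largest DG minus CA3 differences of the Illumina table were those of Mir221 (0.78 ± 0.13, adjusted p = 4.15e-07), AABR06053663.3 (0.72 ± 0.16, adjusted p = 4.51e-05), Mir27b (0.67 ± 0.12, adjusted p = 5.80e-07) and, lower in DG, Mir2964 (-0.82 ± 0.14, adjusted p = 4.05e-07). Below and from 9000 the differences were 1.21 and 0.30 for Mir221, 1.21 and 0.18 for AABR06053663.3, -1.41 and -0.16 for Mir2964, and 0.71 and 0.62 for Mir27b, so that of these 4 only Mir27b was of like size in both series. Among Ion Proton members AABR06034340.1 (-1.50 ± 0.25, adjusted p = 4.90e-07), ENSRNOG00000044512 (-1.02 ± 0.25, adjusted p = 6.80e-04) and AABR06078906.1 (-0.86 ± 0.30, adjusted p = 0.0199) were lower in DG. The values below and from 9000 were -2.13 and -0.80, -1.65 and -0.32, and -1.21 and -0.46 in that order. Among WT members higher in DG, Mir221 had the largest difference (0.98 ± 0.16, adjusted p = 1.45e-07), followed by the 5S gene ENSRNOG00000040821 on chromosome 11 (0.65 ± 0.14, adjusted p = 6.51e-05) and AABR06020197.1 (0.64 ± 0.17, adjusted p = 7.44e-04), while Mir2964 and AABR06085235.1 were lower (-0.58 ± 0.13, adjusted p = 1.24e-04, and -0.59 ± 0.15, adjusted p = 4.82e-04). In rats from 9000 the WT differences of Mir221, ENSRNOG00000040821 and AABR06020197.1 were 0.22, -0.06 and 0.02.

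Host genes were set beside their miRNA genes after the values had been seen. By RefSeq coordinates 30 of the 39 matched members lay inside another gene, and 10 had a host gene in the tables, on the same strand or on a strand not given. Reads on a hairpin inside an intron or exon of its host may be host reads, and counts by strand are not known for these tables. Across the libraries of a table (34 rats by 3 subfields), which share rats and depth, Mir186 and Zranb2 had r = 0.79 in the Illumina table and 0.46 and 0.68 in the others, and Mir568 and Zbtb20 had r = 0.65, 0.31 and 0.78. For Mir2985 and Gria2 it was 0.55, 0.72 and 0.63, for rno-mir-3064 and Ddx5 0.39, 0.69 and 0.69, and for Mir2964 and Cercam 0.64, 0.15 and 0.48. For Mir331 and Vezt it was 0.17 and -0.08 in the poly-A tables.

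The hosts' own subfield differences stood beside those of the miRNA genes. In the Illumina table Zbtb20 was higher in DG than in CA1 by 0.62 ± 0.14 (adjusted p = 1.59e-04) beside 0.42 for Mir568. Cercam was lower by -0.37 ± 0.07 (adjusted p = 1.10e-05) beside -0.58 for Mir2964. Gria2 was higher in DG than in CA3 by 0.36 ± 0.05 (adjusted p = 1.99e-09) beside 0.37 for Mir2985, and Zranb2 by 0.16 ± 0.03 (adjusted p = 2.46e-06) beside 0.39 for Mir186. In the Ion Proton table Eml2 was lower in DG than in CA1 by -0.72 ± 0.10 (adjusted p = 5.18e-09) beside -0.97 for Mir330. Across libraries the pair had r = 0.28. For DG minus CA3 Eml2 and Mir330 stood at -0.58 and -0.01, and for CA3 minus CA1 at -0.14 and -0.96. In the contrasts of the Illumina pairs above, the Ion Proton values of Zbtb20 (0.22), Cercam (-0.38) and Zranb2 (0.22) did not pass (adjusted p = 0.195, 0.0776 and 0.132). That of Gria2 did (0.44, adjusted p = 0.00342). In the WT table Zbtb20, Cercam, Zranb2 and Gria2 passed. Slc12a3 and Mir138-2 had differences of opposite sign in the Illumina table, with DG minus CA3 differences of -0.44 ± 0.12 (adjusted p = 0.00121) and 0.29 (adjusted p = 0.0837). Whether the differences of a pair differ was not tested.

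Genes that make or carry small RNAs were counted by lists, to be read against the 26.7%, 14.8% and 22.4% of all genes called higher and the 29.0%, 15.4% and 23.5% called lower in DG than in CA1. Of 11 miRNA maturation genes, DG minus CA1 called 5 higher and 2 lower in the Illumina table, 1 and 2 in the Ion Proton table and 3 and 2 in the WT table. Ago4, an Argonaute, was lower in DG in all 3 (-0.35 ± 0.07, -0.33 ± 0.09 and -0.28 ± 0.06, adjusted p = 1.95e-05, 0.00294 and 1.22e-04) and lower in CA3 than in CA1 (-0.39, -0.38 and -0.36), the latter mostly in rats below 9000 (-0.58, -0.66 and -0.61, against -0.17, -0.05 and -0.07 from 9000). Ago1 was higher in DG than in CA3 (0.43, 0.30 and 0.27), and from 9000 the values were 0.38, 0.19 and 0.09.

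Of 18 genes of RNA polymerase III and its initiation factors, some of which serve 5S rRNA genes and others, such as Snapc5 and Brf2, genes like that of U6 RNA, DG minus CA1 called 7 higher and 2 lower in the Illumina table, 4 and 1 in the Ion Proton table and 7 and 2 in the WT table. Polr3g, a subunit of the enzyme, was higher by 0.41 ± 0.05, 0.62 ± 0.18 and 0.46 ± 0.06 (adjusted p = 8.64e-12, 0.00399 and 4.30e-11), with values from 0.36 to 0.76 within series. Among the snRNP proteins (28, 28 and 27 tested) DG minus CA1 called 4 higher and 1 lower, 4 and 0, and 4 and 1. The shares called higher (14.3%, 14.3% and 14.8%) were under those of all genes in the Illumina and WT tables and near it in the Ion Proton table. The shares called lower were under those of all genes in every table. Lsm8, of the ring that binds U6 RNA, was lower in CA3 than in CA1 in all 3 tables (-0.43, -0.48 and -0.46).

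The box C/D and H/ACA proteins (12, 13 and 12 tested) had 4, 1 and 3 higher in DG than in CA1 and 0 lower. The proteins of 7SK, signal recognition particle and Y RNAs (9, 11 and 9 tested) had 2 higher and 1 lower, 1 and 2, and 5 and 0. The RNase P and MRP proteins (11 gene identifiers tested in each table) had 2 and 1, 1 and 0, and 3 and 1. Genes were counted by identifier, and Rpp14 of this list had 2 in every table, Gemin7 of the snRNP list 2 in the Illumina table and Srp68 of the signal recognition particle 2 in the Ion Proton table, of which 1 was called lower. Pop5 of that list was higher in DG than in CA3 (0.39, 0.43 and 0.37), from 0.64 to 0.78 below 9000 and from 0.03 to 0.08 from 9000. Of 17 host transcripts of snoRNAs and miRNAs, 2 were in the tables, and 0 of these were called between DG and CA1.

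**Figure D5:**
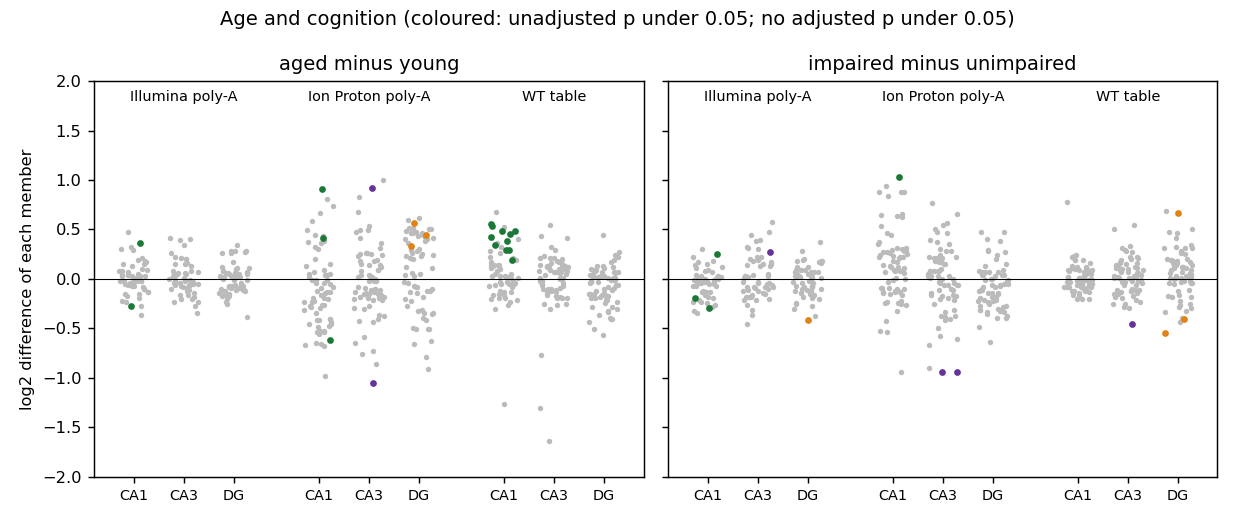
Log2 difference of each tested member (vertical axis) with age, aged minus young, and with impairment, impaired minus unimpaired, by table and subfield, coloured where the unadjusted p was under 0.05. The 11 coloured points of WT CA1 for age all lie above 0, and no member had an adjusted p under 0.276.

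Age and maze performance called no member. Within each subfield aged rats were set against young rats, and impaired against unimpaired, over 34 libraries. In limma at an adjusted p under 0.05, 0 members were called for age in any table. Over all genes the called share for age in CA1, CA3 and DG was 0.310%, 0% and 0.292% in the Illumina table, 0.0197%, 0.00652% and 0.0797% in the Ion Proton table and 0.161%, 0% and 0.111% in the WT table. For impairment 0 members and 0% of genes were called in all 9 comparisons. The edgeR and DESeq2 tests on recovered reads also called 0 members for either.

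At an unadjusted p under 0.05 for age, CA1, CA3 and DG gave 2 of 55, 0 of 55 and 0 of 58 Illumina members (6.11%, 3.28% and 5.16% of all genes), 3 of 70, 2 of 72 and 3 of 67 Ion Proton members (3.30%, 1.41% and 8.20%) and 11 of 64, 0 of 67 and 0 of 69 WT members (6.71%, 3.74% and 3.22%). For impairment the counts were 3, 1 and 1 in the Illumina table (6.05%, 1.75% and 3.60% of all genes), 1, 2 and 0 in the Ion Proton table (3.25%, 2.32% and 1.83%) and 0, 1 and 3 in the WT table (6.64%, 1.63% and 10.1%). With edgeR and DESeq2 the WT CA1 count for age was 11 and 12, the Ion Proton DG count for age rose from 3 to 7 and 9, and the Illumina CA3 count for impairment went from 1 to 6 and 0.

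The 11 WT members of CA1 all had aged minus young differences above 0, of which 0 passed adjustment, and several of them belong to the groups of members that vary together, so they are not separate observations. AABR06031491.1 had a lowest, median and highest count of 10.2, 32.1 and 40.0 in young rats, 27.4, 45.8 and 68.5 in unimpaired rats and 28.2, 36.7 and 53.4 in impaired rats. The medians of both aged groups lay above that of the young rats, with overlap, at 0.53 ± 0.16 (p = 0.00203 from limma, adjusted p = 0.276). AABR06068951.1 (0.48 ± 0.16, adjusted p = 0.450) had medians of 27.3, 33.6 and 33.1.

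Other members named for age were in CA1 and DG of the poly-A tables. The 5S gene ENSRNOG00000044512 had Ion Proton CA1 medians of 11.5 in young, 22.5 in unimpaired and 23.7 in impaired rats (0.91 ± 0.30, adjusted p = 0.935), and AABR06064957.2 had Ion Proton DG medians of 615, 799 and 799 (0.44 ± 0.19, adjusted p = 0.600). In Illumina CA1, AABR06085235.1 had medians of 28.7, 30.9 and 34.4 (0.36 ± 0.14, adjusted p = 0.607) and Mir186 of 58.6, 47.6 and 55.8 (-0.27 ± 0.13, adjusted p = 0.773).

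For impairment, AABR06060442.1 in Illumina CA1 had medians of 170 in unimpaired and 198 in impaired rats (0.25 ± 0.08, adjusted p = 0.619). Mir221 in DG had medians of 20.4 in unimpaired and 15.1 in impaired rats in the Illumina table (-0.42 ± 0.17, adjusted p = 0.999) and of 18.9 and 15.0 in the WT table (-0.55 ± 0.26, adjusted p = 0.488), and neither difference passed. AABR06075773.1 had a difference of 1.03 ± 0.45 in Ion Proton CA1 (adjusted p = 0.999) and -0.41 ± 0.16 in WT DG (adjusted p = 0.488), and AABR06025204.1 one of -0.94 ± 0.46 in Ion Proton CA3 (adjusted p = 1.000).

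No age or impairment difference of a member was called as differing between subfields, with 0 members and 0% of genes in all 18 comparisons and a smallest adjusted p of 0.347. At an unadjusted p under 0.05 the counts ran from 0 to 10, the highest for age in DG minus CA1 of the WT table (10 of 69, with 2.02% of all genes), where all 10 had a higher aged minus young difference in CA1 than in DG.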

How the data were processed

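RNA from CA1, CA3 and DG of 34 male rats was read in 3 sets of libraries, each deposited as 1 table of gene values. The values are read counts per gene that the authors divided by a DESeq2 size factor for each library and deposited as a normalised signal, with each table scaled on its own. For the Illumina table the submitters' processing notes name bcl2fastq 2.17, cutadapt 1.8.3, STAR 2.5, featureCounts 1.4.4 and DESeq2 1.16.1, and for the Ion Proton table the methods name TopHat2, Bowtie2 and featureCounts. The genome was rn5. For the WT table library type and aligner are not given in the sources used here. Labels and methods name different Illumina kits, so whether counts used strand is not known. The tables hold no gene positions or lengths, so levels were compared between genes only as shares of reads.

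Dividing by the smallest positive value of a library gave whole reads for 100.0% of values above 0 (tolerance 0.01 read). Depth is the sum of these reads, and few reads behind a member limit its precision. Values between tables are description. Within a table, log2(value + 1) of genes with a mean of at least 10 was fitted in limma 3.58.1 (R 4.3.3, trend, two-sided, Benjamini-Hochberg over all genes tested, called at an adjusted p under 0.05), by subfield over all libraries and by age and impairment within subfields. edgeR 4.0.16 and DESeq2 1.42.0 on recovered reads, other scalings, a pseudocount of 0.1, no filter, the rat as a block and subsets of rats were alternatives, several of them chosen after seeing the data. The fit was also run on simulated data with a single spread for all genes and no number series or outlying library. That run cannot show how the fit behaves where these data differ.

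The members and gene lists were chosen with earlier results of these data known. Genes were named by size of change among called members, by calls in all 3 tables, by the smallest p for age and impairment, and by reads and ratios between tables. Libraries with 1 rat number come from the same animal. The median correlation of their deviations from subfield means was 0.24 for CA1 with DG, 0.05 for CA1 with CA3 and 0.00 for CA3 with DG in the Illumina table, and near 0 between different rats. Several genes of the lists (among them Gas5, Meg3 and most Snhg genes) were not analysed here. Another gene of the oligodendrocyte list is not reported here and was left out of its sum.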

Additional observations from a re-analysis of the deposited data

Results flagged for a closer look

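In 18 of the 50 named differences between subfields, the difference in rats numbered from 9000 was not the same as in rats below 9000 by limma's test of that difference (adjusted p under 0.05 over all genes tested). All 18 involve CA3. The values below are the log2 difference from 9000 minus that below 9000. For CA3 minus CA1 the same test called 31.0%, 4.05% and 31.9% of the Illumina, Ion Proton and WT members beside 39.7%, 15.0% and 32.9% of all genes, and for DG minus CA3 44.8%, 10.8% and 44.9% beside 48.4%, 17.1% and 45.7%.

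For CA3 minus CA1 in the Illumina table the change was 0.61 for Mir770 (adjusted p = 0.00391), 0.44 for AABR06046241.1 (adjusted p = 0.0267), 0.81 for AABR06057017.1 (adjusted p = 0.00625), 1.61 for Mir374 (adjusted p = 1.34e-07) and 0.67 for Mir221 (adjusted p = 0.0255). WT changes were 0.54 for rno-mir-3064 (adjusted p = 0.0218) and 1.35 for Mir221 (adjusted p = 4.37e-05).

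For DG minus CA3 in the Illumina table it was -0.91 for Mir221 (adjusted p = 0.00166), -1.03 for AABR06053663.3 (adjusted p = 0.00287), 1.25 for Mir2964 (adjusted p = 2.46e-05) and 1.39 for AABR06015851.1 (adjusted p = 3.24e-12). In the Ion Proton table it was 1.34 for AABR06034340.1 (adjusted p = 0.0333) and 1.32 for the 5S gene ENSRNOG00000044512 (adjusted p = 0.0448). WT changes were -1.43 for Mir221 (adjusted p = 9.27e-06), -1.34 for ENSRNOG00000040821 (adjusted p = 4.61e-06), -1.19 for AABR06020197.1 (adjusted p = 9.2e-04), 1.47 for AABR06015851.1 (adjusted p = 4.77e-12) and 0.61 for Mir2964 (adjusted p = 0.0333).

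In 15 groups of 10 young rats tested for a single library far from the others, 0 passed Dixon's limit at the 95% level, where chance gives about 1 in 20. The test uses the gap between the extreme library and its nearest neighbour, so a pair of outlying libraries can hide each other. Among young WT CA3 libraries the highest member shares were 6028 and 5721 RPM, and the next was 1641. The result therefore does not show that the young groups held no outlying libraries. The groups of 12 aged rats were not tested.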

How the results depend on the processing

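Restricting the fits to 1 number series moved more of the counts of called members than any other setting did. In rats from 9000 the Illumina table called 4 members for CA3 minus CA1, 7 for DG minus CA1 and 12 for DG minus CA3 (13.7%, 36.3% and 39.7% of all genes), while 6 WT members were called for CA3 minus CA1 and 5 for DG minus CA1 (12.5% and 26.7%). In rats below 9000, CA3 minus CA1 called 21 Illumina, 5 Ion Proton and 27 WT members (55.4%, 22.6% and 51.7%), and DG minus CA1 called 10 Ion Proton members (15.3%). Other settings moved CA3 minus CA1 to 17 Illumina members with edgeR, and from 3 Ion Proton members to 1 with a pseudocount of 0.1 or with no filter on low values and to 5 with DESeq2 or without the 7 deeply sequenced rats. A mean of at least 20 would leave 70 members in place of 123. In rats from 9000 the log2 difference turned to 0.44 for Mir374 (Illumina, CA3 minus CA1), 0.28 for Mir221 (WT, CA3 minus CA1), -0.06 for 5S_rRNA ENSRNOG00000040821 and 0.05 for AABR06015851.1 (both WT, DG minus CA3). The cause was not tested.

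With the rat as a replicate block, 9 of 9 counts of subfield calls stayed within 1.5 times and 50 of 50 named differences kept their direction and call. The Illumina counts under the block were 13, 21 and 35 for CA3 minus CA1, DG minus CA1 and DG minus CA3, and Mir23b in Illumina DG minus CA1 stayed at 0.61. The WT call of Mir421 for DG minus CA3, named for its calls in all tables, was the exception among other members the text names. Over all settings, 681 values of the differences named by the rule, age and impairment included, kept both, 60 kept their direction without passing and the 4 above turned, a tally that leaves out called members the rule did not name. No age or impairment count was above 0 in 80 values, the main results included. With 10 or 12 rats a group, leaving out each rat in turn was not run. Reads limit the values near the threshold, where a normalised count of 10 is about 10 reads in a library of typical depth and fewer in a shallow one.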
